A study of Mus musculus with 6 samples.

Results

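The circadian clock genes described here are the 10 genes Arntl, Clock, Per1, Per2, Per3, Cry1, Cry2, Dbp, Nr1d1 and Nr1d2, taken by name from the normalized RNA-seq table of macrophages (MPs) sorted from injured mouse muscle. All 10 were found among the 13008 genes of the table, each as 1 entry. The rule uses names alone and no measured value. The study asked how loss of Cripto, a cell-surface co-receptor of the TGF-beta family, in myeloid cells changes the MPs that infiltrate muscle after injury.

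Hind limb muscles of C57BL/6J mice were injured with cardiotoxin, a snake toxin that kills muscle fibers, and GFP+/F4/80+ MPs with low Ly6C were sorted on day 5 after enzymatic digestion of the tissue. There were 3 Control and 3 Cripto KO samples, all labelled as male and 3 months old. The labels give Controls as wild type, while the study describes them as Tg:LysMCre::R26mTmG, so that GFP marks cells in which Cre has acted. Cripto KO samples are Tg:LysMCre::Cripto-/- in the labels, and the methods describe floxed Cripto alleles in mice that also carry LysMCre and R26mTmG. Cre is driven by the lysozyme M locus and is active in the myeloid lineage, so other cell types of the muscle keep Cripto. The study reports the deletion as incomplete, also in GFP+ cells. No check of the labels against the deleted gene was made, as it was not analysed here. How many animals went into each sample is not given in the sources used here, and p-values measure the spread between these samples. The hour of collection and the lighting schedule are likewise not given there.

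The circadian clock is a transcriptional loop that runs in nearly every cell of the body, MPs included. ARNTL (BMAL1) and CLOCK bind E-boxes as a pair and activate the Per, Cry, Nr1d and Dbp genes, the PER and CRY proteins then inhibit that pair, and the REV-ERB proteins made from Nr1d1 and Nr1d2 repress Arntl through RORE sites. In a synchronized tissue, Arntl messenger RNA therefore peaks at the opposite time of day to Nr1d1, Dbp and the Per genes, and the set of levels depends on when the tissue is taken.

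Recovered whole reads per library ran from 12688968 to 14141773 in Control and from 14633880 to 15659847 in Cripto KO samples, so every Cripto KO library was deeper. All 6 macrophage markers (Adgre1, Cd68, Csf1r, Itgam, Mertk and Mrc1) were present, with summed values of 5336 to 5873 in Control and 5213 to 5815 in Cripto KO MPs. Values of the groups did not overlap for 1 of the 6, Mrc1, against 14.5% of all genes. Mrc1 had values of 575 to 602 in Control and 616 to 677 in Cripto KO MPs (limma adjusted p = 0.640). A pair of Control libraries stood apart. Xist, the RNA that coats the inactive X chromosome in females, had a value of 171 in Control 1 and of 0.114 to 0.885 in the other samples, against the male label of Control 1. Lyz2, the gene of the lysozyme M locus, had a value of 11066 in Control 2 and of 21.2 to 28.3 in the other 5 samples. Control 1 and Control 3, at 25.2 and 21.4, were thus like the Cripto KO samples. The Controls differed among themselves in the gene of the locus that drives Cre, although all are labelled wild type. The reason was not tested. For many genes, results without Control 1 or without Control 2 are also given.

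Per unit of exon length, the clock genes spanned a wide range, with Per1 the highest and Per3 the lowest. Each deposited value is a read count, with 0.5 added, per 1000000 reads of the library after normalization. It was divided by the kilobases of exon merged over all annotated transcripts of the gene. That length can exceed the length of the transcripts expressed, so the order depends on it. Per1, a repressor that also responds quickly to stress and growth signals, had a mean level of 38.4 per kb over the 6 samples. Next came Nr1d1 at 20.3 per kb, followed by Dbp at 7.53 and Nr1d2 at 7.28 per kb. Cry1, a strong inhibitor of CLOCK-ARNTL, was at 3.88 per kb, ahead of the activators Arntl at 1.79 and Clock at 1.49 per kb. Before the division these genes stood in the reverse order, with mean values of 20.5 for Clock, 13.5 for Arntl and 13.0 for Cry1. Per2 and Cry2 were at 0.804 and 0.764 per kb and Per3 at 0.361 per kb. Neighbours in this order had separate ranges over the 6 samples except for 3 pairs, Dbp with Nr1d2, Arntl with Clock, and Per2 with Cry2. The low levels of Per2, Per3 and Cry2 rest on few reads, 58 to 75, 31 to 70 and 57 to 79 per library, whereas Per1 had 2553 to 3360.

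**Figure D1:**
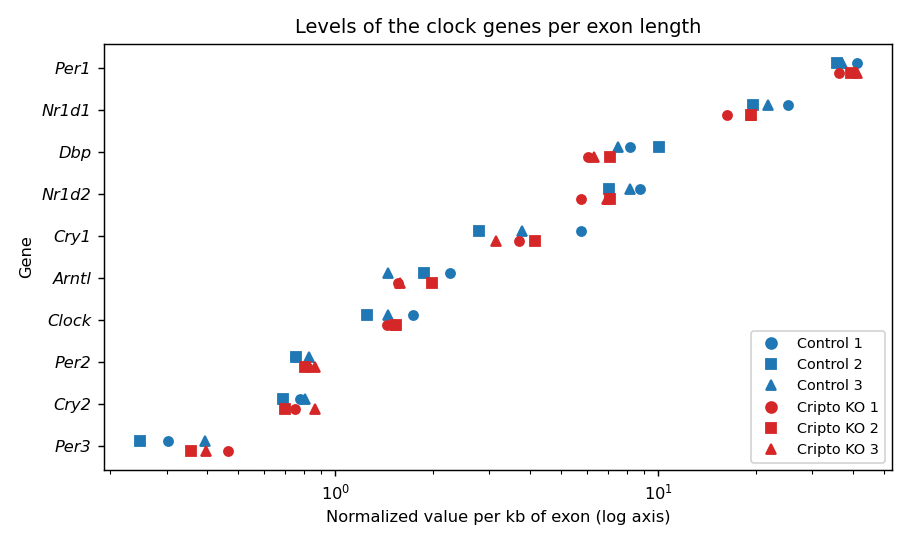
Level of each clock gene per kb of annotated exon (x axis, log scale, normalized value per kb) in the 3 Control (blue) and 3 Cripto KO (red) samples, with genes ordered by their mean. Per1 sits at 35.8 to 41.1 per kb and Per3 at 0.248 to 0.466 per kb.

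Short stretches before annotated start sites of 4 of these genes are shown because they hold the letters through which the loop is known to act on its members. RefSeq start sites (GRCm38.p6) were matched for 9 of the 10 genes with 13 windows of 250 bases before a start. Per2 was not matched. Both strands were searched for the E-box CACGTG, present in 6.02% of all 32851 windows of that length, its variant CACGTT (3.85%), the D-box TTATGTAA (0.819%) and the core AGGTCA of a RORE (14.0%). Each stretch below reads 5′ to 3′ on the strand of its gene, with the motif named here for that gene in capitals. For Per3 (chr4:151044786-151044900, minus strand) the capitals mark 2 D-boxes, which begin 205 and 158 bases before the start. The E-boxes of Cry1 (chr10:85185079-85185144, minus strand) and Per1 (chr11:69098753-69098818, plus strand) begin 60 and 166 bases before the start. That Per1 start is internal, as the gene spans 69095217 to 69109960, so the Per1 stretch lies inside the gene. No window before the first base of Per1 was matched. In Nr1d1 (chr11:98775378-98775435, minus strand) the capitals mark the variant as read on the opposite strand, 28 bases before the start. Other matches are left in lower case. These are the variant in the Cry1 stretch, 79 bases before the start, and the RORE core in the Per1 stretch, 137 bases before it, both on the opposite strand.
Per3: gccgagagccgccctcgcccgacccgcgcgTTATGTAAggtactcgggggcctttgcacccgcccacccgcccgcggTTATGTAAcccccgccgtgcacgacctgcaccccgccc
Cry1: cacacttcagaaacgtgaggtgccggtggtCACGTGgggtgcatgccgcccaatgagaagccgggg
Per1: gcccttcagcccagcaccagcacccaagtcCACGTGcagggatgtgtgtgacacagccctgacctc
Nr1d1: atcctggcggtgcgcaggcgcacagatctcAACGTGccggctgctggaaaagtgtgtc
The E-box was found for 2 members (Per1 and Cry1), the variant for 3 (Cry1, Cry2 and Nr1d1), the D-box for 1 (Per3) and the RORE core for 3 (Clock, Per1 and Nr1d2), while the windows of Arntl and Dbp held none of the 4 motifs. The Clock match lies before an internal start, in a window (76303503 to 76303752) inside the gene, and the other Clock windows held no match. These counts are per gene, over 1 or more windows, whereas the shares above are per window. A match describes letters in these windows and shows no binding in these cells.

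To ask whether the clock genes differed with loss of Cripto, Control and Cripto KO samples were compared over all genes with limma, with log2 values of Control minus Cripto KO. None of the 10 clock genes had an adjusted p under 0.05, against 17 genes or 0.131% of the whole table. For 3 of the 10 there was an unadjusted p under 0.05, against 8.59% of all genes, and edgeR and DESeq2 on the recovered reads also gave 3 of 10 at this unadjusted level and 0 of 10 after adjustment. These were Dbp, Nr1d1 and Nr1d2, all with the higher mean in Control. Nr1d1 and Nr1d2 followed each other closely over the 6 samples (Pearson r = 0.99). The count was 1 of 10 with quantile normalization, without a variance trend and with a replicate block. Leaving out Control 1, Control 3 or Cripto KO 1 also gave 1 of 10. Control and Cripto KO values did not overlap for 2 of the 10 (Dbp and Nr1d1), against 14.5% of all genes. Of the 10 log2 differences 5 were above 0, and their median was 0.04, beside 0.01 over all genes.

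The activators came first. Arntl (ENSMUSG00000055116; GRCm38 chromosome 7, 113207465 to 113314126, plus strand) had normalized values of 17.0, 14.1 and 10.98 in Control 1, 2 and 3, and of 11.8, 15.0 and 11.9 in Cripto KO 1, 2 and 3. Its highest and its lowest value were both in Control samples. The log2 difference was 0.11 ± 0.18 (SE; 95% interval -0.29 to 0.51; limma adjusted p = 0.896), and without Control 1 it was -0.04. Clock (ENSMUSG00000029238; chromosome 5, 76209868 to 76304792, minus strand), whose product pairs with ARNTL and is a histone acetyltransferase, had values of 23.9, 17.2 and 19.95 in Controls and 19.8, 21.2 and 21.0 in Cripto KO MPs. The Cripto KO values lay inside the Control range, and the log2 difference was -0.03 ± 0.13 (SE; 95% interval -0.32 to 0.25; limma adjusted p = 0.962), turning to 0.08 without Control 2. Without Control 1 it was -0.16.

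**Figure D2:**
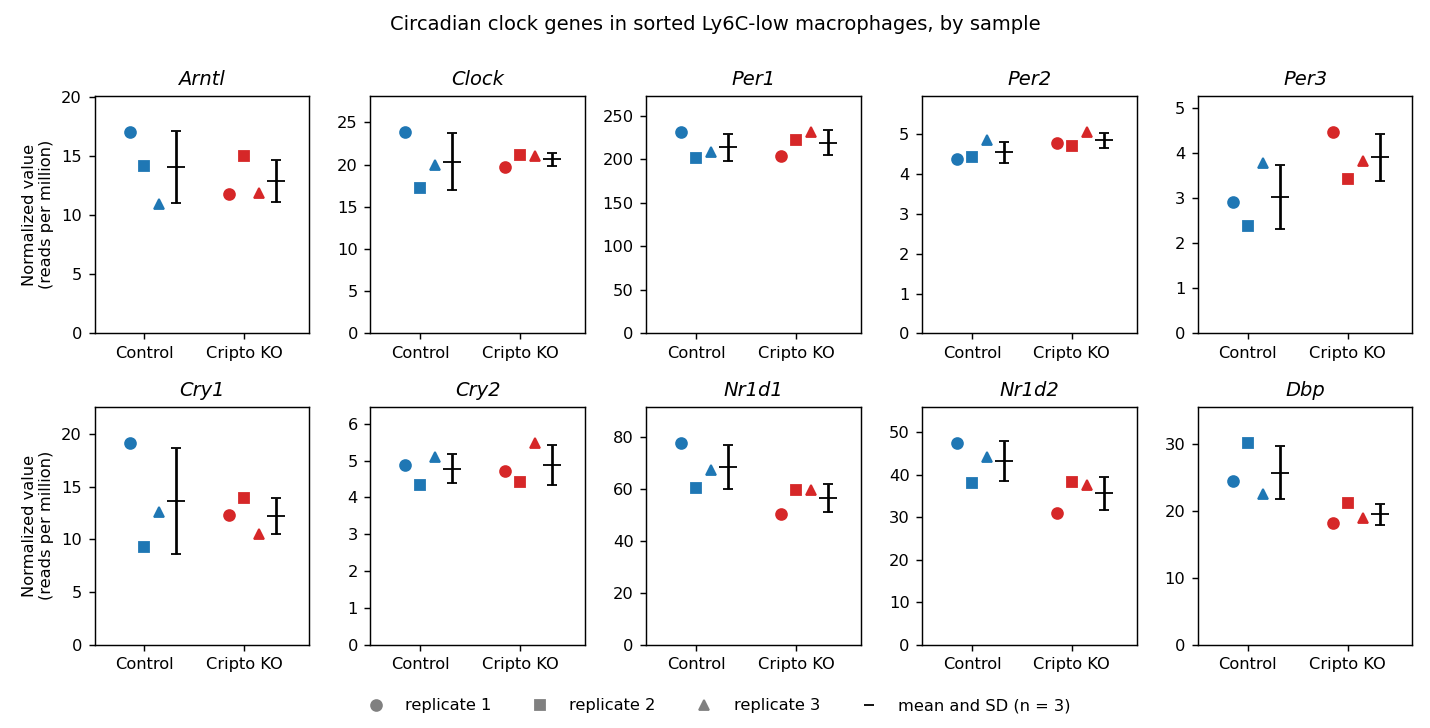
Normalized value (reads per 1000000 of normalized library size, y axes from 0) of each of the 10 clock genes in each Control (blue) and Cripto KO (red) sample, with symbols for the replicate number and a bar for the mean and SD of 3 samples. Groups do not overlap for Dbp and Nr1d1, where the lowest Control values are 22.5 and 60.4 and the highest Cripto KO values 21.2 and 59.6.

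The repressors of the PER and CRY families overlapped between the groups in each of 5 genes. Per1 (ENSMUSG00000020893; chromosome 11, 69095217 to 69109960, plus strand) had values of 232, 201 and 208 in Controls and 204, 222 and 232 in Cripto KO MPs. Its groups covered nearly the same range, with a log2 difference of -0.04 ± 0.08 (SE; 95% interval -0.21 to 0.14; limma adjusted p = 0.925). Per1 had the narrowest interval of the members. The log2 difference of Per1 changed sign to 0.0049 without Control 2 and to 0.0037 without Cripto KO 3, and it was -0.10 without Control 1.

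Per2 (ENSMUSG00000055866; chromosome 1, 91415982 to 91459324, minus strand), the main PER repressor together with Per1, had values of 4.38, 4.43 and 4.86 in Controls and 4.79, 4.71 and 5.07 in Cripto KO MPs. The highest sample was Cripto KO 3 and the lowest Control 1, and the log2 difference was -0.09 ± 0.16 (SE; limma adjusted p = 0.909). Per3 (ENSMUSG00000028957; chromosome 4, 151003652 to 151044665, minus strand), the PER paralog least needed for rhythms, had values of 2.91, 2.38 and 3.79 in Controls and 4.48, 3.43 and 3.83 in Cripto KO MPs. Control 1 and 2 lay below all Cripto KO samples and Control 3 lay among them. Its log2 difference of -0.39 ± 0.24 (SE; 95% interval -0.92 to 0.15; limma adjusted p = 0.693) was close in size to that of Dbp, with the opposite sign and a wider interval. It was -0.23 without Control 2, -0.37 without Control 1 and -0.56 without Control 3.

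Cry1 (ENSMUSG00000020038; chromosome 10, 85131700 to 85185064, minus strand) varied most among the 10. Its values were 19.2, 9.27 and 12.6 in Controls and 12.4, 13.9 and 10.5 in Cripto KO MPs. Control held both extremes, and the log2 difference of 0.10 ± 0.24 (SE; limma adjusted p = 0.933) became -0.17 without Control 1 and 0.35 without Control 2. Cry2 (ENSMUSG00000068742; chromosome 2, 92403646 to 92434043, minus strand), the second cryptochrome, had values of 4.90, 4.35 and 5.10 in Controls and 4.73, 4.42 and 5.48 in Cripto KO MPs. Those groups overlapped nearly completely, with a log2 difference of -0.03 ± 0.18 (SE; limma adjusted p = 0.978) that was 0.02 after quantile normalization and 0.04 without Control 2.

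Dbp (ENSMUSG00000059824; chromosome 7, 45705088 to 45710203, plus strand), a PAR bZIP factor that binds D-boxes and a direct output of CLOCK-ARNTL, had values of 24.4, 30.1 and 22.5 in Controls and 18.1, 21.2 and 18.9 in Cripto KO MPs. All Control samples were above all Cripto KO samples, with Control 2 the farthest up. The means were 25.7 ± 3.95 and 19.4 ± 1.60 (SD, n = 3 each), a 1.31-fold difference or 0.39 ± 0.13 on the log2 scale (SE; 95% interval 0.11 to 0.68). The unadjusted limma p was 0.0121 and the adjusted p 0.479. The log2 difference was 0.42 without Control 1 and 0.27 without Control 2, with the unadjusted p under 0.05 in 17 of 17 alternative fits and the adjusted p between 0.354 and 0.855.

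Both REV-ERB genes had similar differences. Nr1d1 (ENSMUSG00000020889; chromosome 11, 98767932 to 98775333, minus strand), which encodes the heme-binding repressor REV-ERB-alpha, had values of 77.5, 60.4 and 67.0 in Controls and 50.1, 59.6 and 59.5 in Cripto KO MPs. The groups did not overlap, by a margin of less than 1 between Control 2 and Cripto KO 2. Means were 68.3 ± 8.63 and 56.4 ± 5.47 (SD, n = 3 each), a 1.21-fold or log2 difference of 0.27 ± 0.11 (SE; 95% interval 0.03 to 0.52), with an unadjusted limma p of 0.0331 and an adjusted p of 0.536. Nr1d2 (ENSMUSG00000021775; chromosome 14, 18204054 to 18239127, minus strand), which encodes its paralog REV-ERB-beta, had values of 47.4, 38.0 and 44.1 in Controls and 31.1, 38.2 and 37.5 in Cripto KO MPs. Here Control 2 fell just below Cripto KO 2, so the groups overlapped, and the log2 difference was 0.28 ± 0.11 (SE; 95% interval 0.02 to 0.53), with an unadjusted limma p of 0.0357 and an adjusted p of 0.537. The unadjusted p was under 0.05 in 11 of 17 alternative fits for either gene. Without Control 2 the log2 differences rose to 0.36 for Nr1d1 and 0.37 for Nr1d2, with unadjusted limma p-values of 0.0107 and 0.0113. Without Control 1 the log2 differences were 0.18 for Nr1d1 and 0.21 for Nr1d2, with unadjusted limma p-values of 0.111 and 0.110. They were 0.28 and 0.26 without Control 3, with unadjusted limma p-values of 0.0647 and 0.0928. Without Cripto KO 1 they were 0.19 and 0.18, with unadjusted limma p-values of 0.119 and 0.129. With Control 1, Control 3 or Cripto KO 1 left out, Dbp was the 1 member left with an unadjusted p under 0.05.

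Exons of 4 of these genes share bases with a gene on the opposite strand, and without strand the reads cannot be told apart. The partners of Cry2 (D930015M05Rik, 295 shared exonic bases) and Arntl (Gm45355, 33 bases) were not analysed here, whereas those of Dbp and Nr1d1 were. Dbp shares 539 exonic bases with Sphk2, a sphingosine kinase gene, which is 18.0% of the exon length of Dbp. Sphk2 had values of 50.1 to 51.7 in Control and 45.4 to 47.1 in Cripto KO MPs, a log2 difference of 0.14 ± 0.07 (SE; limma adjusted p = 0.643), also with no overlap between the groups. Nr1d1 shares 263 exonic bases (8.55% of its exon length) with Thra, the thyroid hormone receptor alpha gene. Thra had values of 21.2 to 25.7 in Control and 19.3 to 23.7 in Cripto KO MPs, a log2 difference of 0.11 ± 0.12 (SE; limma adjusted p = 0.819). The part of the shared bases in the values of Dbp and Nr1d1 was not tested.

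**Figure D3:**
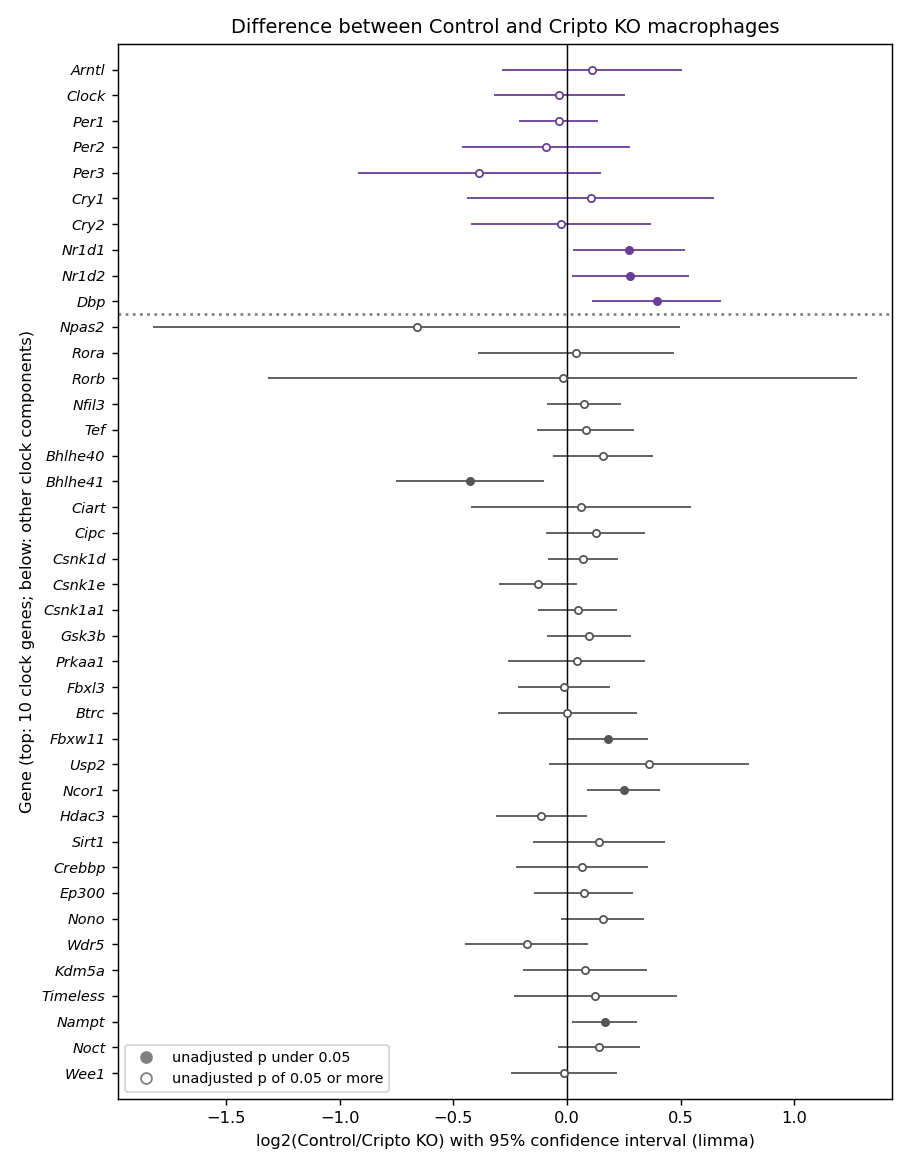
Log2 difference between Control and Cripto KO (x axis, with the 95% confidence interval of limma) for the 10 clock genes (purple, top) and 30 other clock components (grey, below), with filled points for an unadjusted p under 0.05. Dbp, Nr1d1 and Nr1d2 lie above 0 at 0.39, 0.27 and 0.28, and Bhlhe41 lies below at -0.43.

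How far the values moved between samples differed widely among the clock genes. The ratio of the highest to the lowest of the 6 values was largest for Cry1 (2.07), Per3 (1.88) and Dbp (1.66), and smallest for Per1 (1.15) and Per2 (1.16). Among genes within 2-fold of the same mean, 95.6% had a smaller ratio than Cry1, 93.4% than Dbp, 93.3% than Nr1d1 and 92.1% than Nr1d2. By contrast 1.00% of such genes had a smaller ratio than Per2 and 6.15% than Cry2, whose spread within groups (CV of 4.84% and 9.76%) was below what counting their reads alone gives (12.4% and 12.2%). For Cry1, Arntl and Nr1d1 the CV within groups was 29.0%, 18.6% and 11.6%, against 7.46%, 7.32% and 3.41% from counting. These counting values cover the sampling of reads alone.

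Single libraries held many of the extremes. Control 1 had the highest value of 5 members (Arntl, Clock, Cry1, Nr1d1 and Nr1d2), and Control 2 had the lowest value of 5 (Clock, Per1, Per3, Cry1 and Cry2). Cripto KO 1 had the lowest value of the 3 genes Dbp, Nr1d1 and Nr1d2 and the highest of Per3, and Cripto KO 3 had the highest value of Per1, Per2 and Cry2. In Control 1, 2 and 3, respectively, 8, 2 and 6 of the 10 members lay above their mean over the 6 samples. For Cripto KO 1, 2 and 3 these numbers were 2, 6 and 5.

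**Figure D4:**
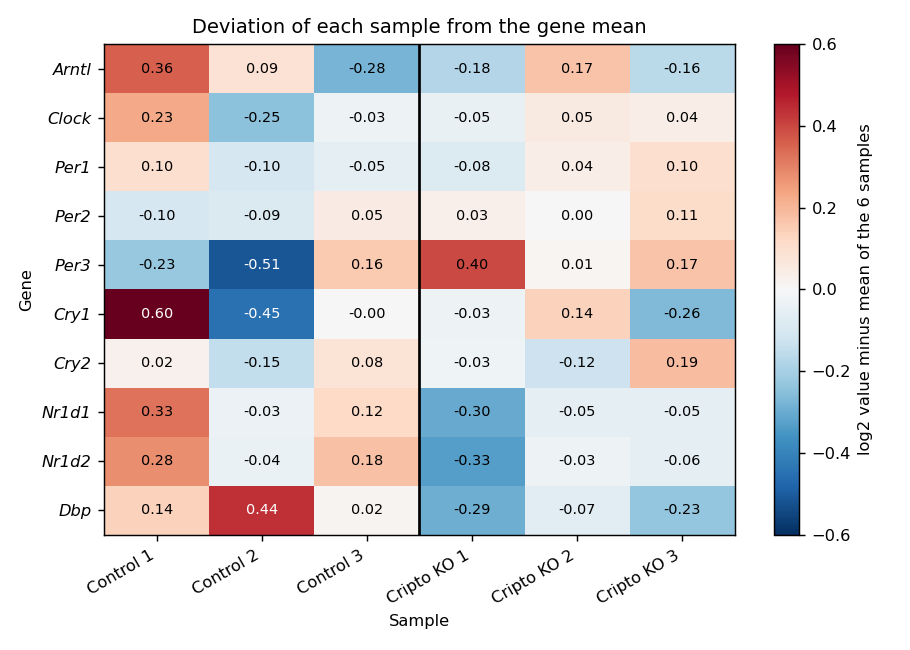
Log2 value of each clock gene (rows) in each sample (columns) minus the mean of the 6 samples, in red above and blue below 0, with the value printed in each cell and a line between the groups. Cry1 runs from 0.60 in Control 1 to -0.45 in Control 2, and Dbp from 0.44 in Control 2 to -0.29 in Cripto KO 1.

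As collection time is not in the labels, genes known to peak at opposite times of day were compared across the 6 samples. Arntl had positive correlations with Nr1d1 (Pearson r = 0.52, Spearman rho = 0.37; exact permutation p = 0.296 and 0.497), Dbp (r = 0.49, rho = 0.43; p = 0.333 and 0.419) and Nr1d2 (r = 0.43, rho = 0.43; p = 0.412 and 0.419). Without the 2 samples farthest from the Arntl median (Control 1 and Control 3), r was 0.61, 0.64 and 0.65. Without Control 1 alone it was -0.05 for Nr1d1 and -0.08 for Nr1d2, so their sign depended on which samples were kept, while for Dbp r was between 0.38 and 0.61 whichever library was left out.

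The Per genes did not share 1 direction. Per2 and Per3 had negative correlations with Arntl, with r = -0.80 and rho = -0.77 for Per2 (exact permutation p = 0.0681 and 0.103) and r = -0.67 and rho = -0.66 for Per3 (p = 0.154 and 0.175). Leaving out the same 2 samples gave -0.68 for both. For Per2 r was -0.735 with median centring and -0.55 with quantile normalization. It was -0.66 without Control 1 and between -0.86 and -0.80 without any other 1 library. For Per1 r was 0.42 and rho 0.31 (exact permutation p = 0.385 and 0.564), and r fell to -0.09 without the 2 samples. Per2 varied by less than its counting error, and 2.55% of 11958 other genes with a mean value of at least 1 had a lower r with Arntl than Per2 had. The partner Clock had r = 0.42 with Arntl, Cry1 0.57 and Cry2 -0.48, with exact permutation p-values of 0.408, 0.247 and 0.332. Over the 9 relations the Benjamini-Hochberg adjusted p was 0.412 for each r and at least 0.559 for each rho, so no relation passed. Over all 11959 genes the median r with Arntl was 0.02.

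Within samples the log2 ratio of Arntl to each phase-opposed gene, which does not depend on library scaling and was taken without division by exon length, overlapped between the groups. For Arntl to Nr1d1 it stood at -2.18, -2.10 and -2.61 in Controls and -2.09, -1.99 and -2.32 in Cripto KO samples. Control 3 was the lowest. The ratio of Arntl to Dbp stood at -0.52, -1.09 and -1.03 in Controls and -0.62, -0.50 and -0.67 in Cripto KO samples. Here Control 1 lay among the Cripto KO samples and the other Controls below them. Arntl to Per3 gave 2.55, 2.57 and 1.53 in Controls and 1.40, 2.12 and 1.64 in Cripto KO samples, the widest span of the 6 ratios. Differences in collection hour between the samples were not tested beyond these values, and the hour and the group cannot be told apart if the groups were collected at different times.

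Among all 45 pairs of members, 30 had a positive and 15 a negative r, and 0 had an adjusted exact permutation p under 0.05, with 4 under 0.05 before adjustment. Nr1d1 and Nr1d2 followed each other most closely, with r = 0.99 and rho = 0.94 (exact permutation p = 0.00417 and 0.0167; adjusted 0.0938 and 0.375). Per kb of exon, the level of Nr1d1 exceeded that of Nr1d2 by 2.67-fold to 2.87-fold in the 6 samples, and r was 0.97 after removing the group means and at least 0.97 without any 1 library. Per3 and Dbp were opposed, with r = -0.95 and rho = -0.94 (exact permutation p = 0.00417 and 0.0167; adjusted 0.0938 and 0.375). Their order was nearly inverse, and r was -0.94 after removing the group means, between -0.98 and -0.86 without any 1 library and -0.70 without the 2 samples farthest from the median of Per3. Per3 had 31 to 70 reads per library, and its CV within groups was 18.1%, against 14.4% from counting its reads alone. In a synchronized tissue, as described above, both genes peak on the same side, opposite to Arntl. The Per3 window printed above holds 2 D-boxes, the letters DBP binds, but these values say nothing about binding. Clock had r = 0.84 with Per1 and 0.88 with Cry1 (exact permutation p = 0.0167 and 0.0375; adjusted 0.250 and 0.422), the latter being -0.03 without the 2 samples farthest from the Clock median. The 45 pairs share the same 6 libraries and are not independent.

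**Figure D5:**
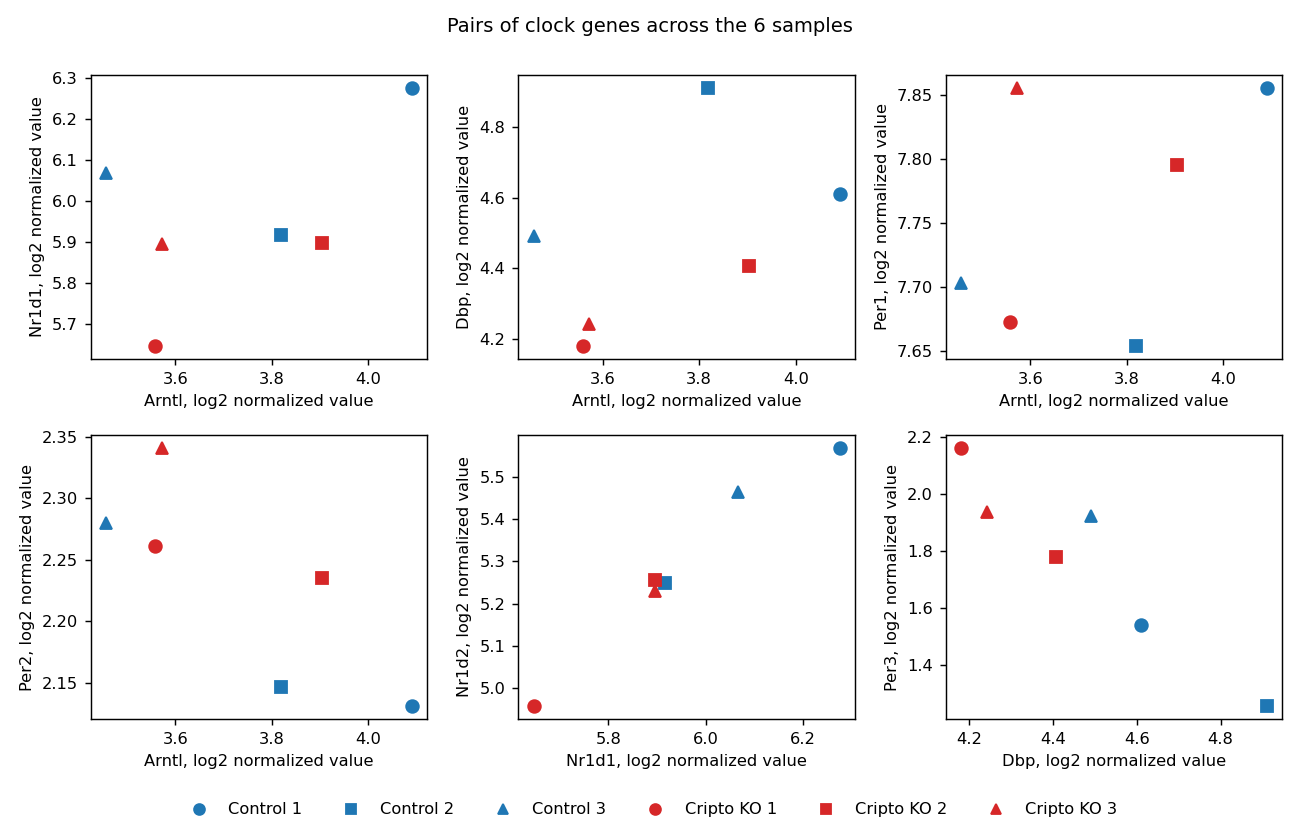
Pairs of clock genes, as log2 normalized values on both axes, with 1 point per sample (blue Control, red Cripto KO, symbols for replicate number). Arntl against Nr1d1, Dbp, Per1 and Per2 gives r of 0.52, 0.49, 0.42 and -0.80, Nr1d1 against Nr1d2 0.99, and Dbp against Per3 -0.95.

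Genes whose pattern was most like that of Arntl over the 6 samples, among those with a mean value of at least 1, were Papd4, Trim30d and Tcf20 (Pearson r = 0.99, 0.98 and 0.98). The most opposed were Ptk2b, Fchsd1 and D10Jhu81e (r = -0.99 for each). With 6 points, 328 genes had an r above 0.8 and 312 an r below -0.8.

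Other parts of the clock machinery were compared in the same way. Of 35 listed components, 30 were in the table. By limma 3 had an unadjusted p under 0.05 with the higher mean in Control, 1 with the higher mean in Cripto KO, and 0 an adjusted p under 0.05, while 22 of 30 log2 differences were above 0 with a median of 0.07. Over all genes 598 (4.60%) and 519 (3.99%) had such an unadjusted p in the respective directions and 52.6% of differences were above 0. Without Control 1 the counts for the 30 components were 3 and 3 with a median of 0.01, and without Cripto KO 1 they were 1 and 1 with a median of 0.0014. The counts were 3 and 0 without Control 2 or Cripto KO 2, 1 and 1 without Control 3, and 1 and 0 without Cripto KO 3.

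Ncor1, the corepressor through which REV-ERBs act, had values of 63.0 to 63.7 in Control and 49.9 to 55.0 in Cripto KO MPs, a log2 difference of 0.25 ± 0.07 (SE; limma unadjusted p = 0.00675, adjusted 0.420). Its p was the smallest of the 30 components. Nampt, the enzyme of NAD salvage under clock control, had values of 223 to 230 and 193 to 212, and Fbxw11, a subunit of a ubiquitin ligase for PER proteins, 101 to 106 and 83.9 to 99.8. Their log2 differences were 0.17 and 0.18 (limma adjusted p = 0.524 and 0.561), and leaving out any 1 library except Cripto KO 2 took the unadjusted p of both above 0.05. Bhlhe41 (DEC2), which competes for E-boxes, had values of 94.8, 79.1 and 95.6 in Controls and 94.1, 137 and 135 in Cripto KO MPs. Cripto KO 1 lay with the Controls, and the log2 difference was -0.43 ± 0.14 (SE; limma unadjusted p = 0.0159, adjusted 0.494) and -0.34 without Control 2 (unadjusted p = 0.0594), with unadjusted p-values of 0.0679 without Cripto KO 2 and 0.0644 without Cripto KO 3.

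Sets with no member under 0.05 included the RORE regulators and the kinases. Nfil3, a repressor that opposes DBP at D-boxes, had a mean value of 313, and Rora, the activator that opposes REV-ERBs at ROREs, of 11.9. Their log2 differences were 0.08 and 0.04 (limma adjusted p = 0.809 and 0.971). Tef, a PAR bZIP relative of Dbp, had a log2 difference of 0.08 ± 0.09 (SE; limma adjusted p = 0.843), beside 0.39 for Dbp. Of 5 kinase genes of the clock, which act on PER or CRY proteins, the casein kinase gene Csnk1e had the smallest p, with a log2 difference of -0.13 (limma adjusted p = 0.690), and Csnk1a1 and Csnk1d had the highest mean values (171 and 160.0). Npas2, which can replace Clock, had a mean value of 0.545 and a log2 difference of -0.66 ± 0.51 (SE; limma adjusted p = 0.759).

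REV-ERBs are known in macrophages to repress a small set of inflammatory and matrix genes, of which 4 were listed and present. Mmp9, a matrix metalloproteinase, had values of 15.2, 22.4 and 21.9 in Controls and 39.3, 45.6 and 41.5 in Cripto KO MPs. All Cripto KO samples were above all Controls, and the log2 difference was -1.10 ± 0.15 (SE; 95% interval -1.44 to -0.77; limma adjusted p = 0.0313), so Mmp9 was 1 of the 17 genes called in the whole table. The difference was -0.92 without Control 1 (limma adjusted p = 0.00764) and -1.20 without Control 2 (limma adjusted p = 0.0449). Of 17 alternative fits 10 kept the call, and the limma adjusted p was 0.113 without Control 3, 0.0834 without Cripto KO 1, 0.223 without Cripto KO 2, 0.147 without Cripto KO 3, 0.0772 with quantile normalization, 0.0572 with a replicate block and 0.296 without a variance trend. Ccl2, a monocyte chemokine, Il6, an inflammatory cytokine, and Cx3cr1, the fractalkine receptor, had log2 differences of 0.22, 0.12 and -0.11 (limma adjusted p = 0.700, 0.929 and 0.929). The list thus held 1 call and 2 differences above and 2 below 0. Like the other lists, it was chosen with earlier results of these data known.

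Signals other than time of day are known to set clock genes, and the genes that report them were read beside the members. Of 8 glucocorticoid targets 1 had an unadjusted p under 0.05 with the higher mean in Control, against 4.60% of all genes. It was Fkbp5, a cochaperone of the receptor, with values of 14.4 to 16.7 in Control and 10.9 to 12.2 in Cripto KO MPs (log2 difference 0.38 ± 0.12 SE; limma adjusted p = 0.453), and the median of the list was 0.04. Of 11 immediate-early genes, which dissociation can induce, 2 had an unadjusted p under 0.05, against 8.59% of all genes in either direction. Atf3 had a log2 difference of 0.24 and Btg2 of -0.25 (limma adjusted p = 0.500 and 0.537), with a median of 0.01 and summed values of 13575 to 13931 in Control and 13144 to 13981 in Cripto KO MPs. The list of 8 genes that respond to temperature was, like the others, chosen with earlier results of these data known. Of its members 6 had the higher mean in Cripto KO with an unadjusted limma p under 0.05, against 3.99% of all genes in that direction. After adjustment 0 had a p under 0.05. Those 6 included the chaperone genes Hsph1, Hspa1b, Hspa1a, Hsp90aa1 and Dnajb1, with log2 differences of -0.87, -0.58, -0.54, -0.57 and -0.37. The remaining one was the cold-inducible RNA-binding gene Cirbp with -0.53. The smallest adjusted limma p was 0.0792 (Hsph1). Hspa8 and Rbm3 did not pass, with log2 differences of 0.02 and -0.21 (limma adjusted p = 0.974 and 0.722). As the list joins chaperone genes with the cold-inducible genes Cirbp and Rbm3, its count and sum do not describe a single response. Summed values of that list were 13288 to 16232 in Control and 18318 to 20676 in Cripto KO MPs, with no overlap. The count was 6 without Control 1 and 6 without Control 2. Its part in the values of the clock genes was not tested.

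Markers of other cells were read in the same way, and these lists too were chosen with earlier results of these data known. All 6 fibroblast markers were present with summed values of 459 to 481 in Control and 540 to 591 in Cripto KO MPs, and 5 of them (Col3a1, Col1a1, Col1a2, Pdgfra and Dcn) had the higher mean in Cripto KO with an unadjusted limma p under 0.05, against 3.99% of all genes, and 0 after adjustment. All 5 muscle fiber markers were present with summed values of 29.7 to 62.0 and 15.1 to 45.1, and 3 of them (Myh4, Ckm and Tnnt3) had the higher mean in Control with an unadjusted limma p under 0.05, against 4.60% of all genes, and 0 after adjustment. Acta1 and Des had log2 differences of 0.28 and -0.22 (limma adjusted p = 0.892 and 0.815). The fibroblast count was 3 without Control 1, Cripto KO 1 or Cripto KO 3, 4 without Control 3 and 5 otherwise. The muscle count was 1 without Control 1, Cripto KO 2 or Cripto KO 3, 2 without Control 3, 3 without Control 2 and 4 without Cripto KO 1. Summed endothelial values were 34.4 to 42.4 and 32.6 to 39.1, and summed monocyte values 56.6 to 88.8 and 67.7 to 91.5, with 0 of 4 markers under 0.05 in either list. Of the 3 neutrophil markers in the table, S100a9 and Retnlg had 0 reads in every library, and S100a8 had 8 to 22 reads, with values of 0.694 to 1.07 in Control and 1.17 to 1.55 in Cripto KO MPs (log2 difference -0.52 ± 0.34 SE; limma adjusted p = 0.712). The part of these cells in the clock gene values was not tested, and in such bulk samples fewer cells of a type and less RNA per cell cannot be told apart.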

How the data were processed

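RNA-seq libraries of sorted MPs were sequenced by the authors, trimmed with Cutadapt 1.7.1 and quantified with RSEM 1.2.20 on the mouse transcriptome (GRCm38), and edgeR and limma are named in the submitters' notes. The values that the authors deposited are a normalized signal, namely a read count, with 0.5 added, per 1000000 reads of the library after normalization. The smallest value of each sample stands for 0 reads and equals the 0.5 added. Scaled by it and with the 0.5 taken off, 100% of 78048 values came out as whole reads, within 0.01. Whether the counting used strand is not given in the sources used here, and the library kit does not mark it. All 6 columns belong to labelled samples, and the table has no columns of the authors' own comparisons.

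Control and Cripto KO samples were compared with limma 3.58.1 (R 4.3.3; lmFit and eBayes with a variance trend, two-sided, Benjamini-Hochberg adjustment) on the log2 of the deposited values with nothing added, for the 13008 genes together. Alternatives were pseudocounts of 0.5 and 1, a minimum mean value of 1, median centring, quantile normalization, no trend, a robust prior, voom weights, edgeR 4.0.16 and DESeq2 1.42.0 on the whole reads, a block for the replicate number, and each sample left out in turn. The fits were tested on simulated data. Correlations over the 6 samples used exact permutation of all 720 pairings.

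Named are all 10 clock genes, of each other list the members with an unadjusted p under 0.05 or otherwise the member with the smallest p and those of highest mean, and the 3 genes most and least like Arntl. The members and lists were chosen with earlier results of these data known. Positions and exon lengths came from GENCODE vM21 (GRCm38) and promoter windows from RefSeq (GRCm38.p6). Added after seeing the data were Sphk2, Thra, Xist, Lyz2, markers without reads, all 4 REV-ERB targets, and the alternatives for genes outside the clock list and for pairs.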

Additional observations from a re-analysis of the deposited data

How the results depend on the processing

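Over 17 alternative fits, 0 of 170 log2 differences of the clock genes passed an adjusted p of 0.05, and 5 of 10 members (Per2, Per3, Dbp, Nr1d1 and Nr1d2) kept their sign throughout. The number of genes called in the whole table moved most, from 17 by limma (and 17 by edgeR) to 71 with DESeq2, 31 with a robust prior, 9 with voom weights, 6 with quantile normalization, 5 without a variance trend and 5 to 31 when 1 sample was left out (5 without Cripto KO 2, 31 without Control 1), and those with an unadjusted p under 0.05 from 1117 to 741 to 1360 when 1 sample was left out. Clock genes with an unadjusted p under 0.05 went from 3 to 1 with quantile normalization and without a trend, and to 1 to 3 when 1 sample was left out (1 without Control 1, Control 3 or Cripto KO 1). Non-overlapping members went from 2 to 1 with quantile normalization and to 2 to 4 when 1 sample was left out. Leaving out 1 sample gave log2 differences of -0.040 to 0.28 for Arntl, -0.16 to 0.081 for Clock, -0.10 to 0.0049 for Per1, -0.14 to -0.062 for Per2, -0.56 to -0.23 for Per3, -0.17 to 0.35 for Cry1 and -0.093 to 0.061 for Cry2, which was also 0.022 with quantile normalization, and correlations with Arntl of -0.19 to 0.90 for Clock, -0.049 to 0.85 for Cry1, -0.052 to 0.85 for Nr1d1 and -0.077 to 0.86 for Nr1d2. The cause of these changes was not tested. Where 1 sample was left out of a group of 3, the fit pooled the spread.

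With the replicate number as a block 2 genes were called in the whole table and 1 clock gene had an unadjusted p under 0.05. Samples of the same number did not deviate together (r of -0.21, -0.0052 and -2.46e-05), so the numbers were not taken to pair them. The sources used here number the Controls in different orders, and the numbers of the labels were used, so which samples share a number is uncertain for these r and for the block. The shallowest members, Per2, Per3 and Cry2, have at most 75, 70 and 79 reads in a library; counting error limits their precision. Collection time, animals per sample and batches are not given in the labels.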
